A study of Homo sapiens with 8 samples.

Results

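The epithelial-mesenchymal transition is the programme by which cells that adhere to each other through E-cadherin give up that contact and take on the shape and motility of mesenchymal cells. Zinc-finger and helix-loop-helix repressors of the ZEB, SNAI and TWIST families shut off the E-cadherin gene, and carcinoma cells that carry such changes are known for migration and invasion. The genes described here are 10 regulators and markers of this programme: the cadherins CDH1 and CDH2, the cytoskeletal and matrix genes VIM and FN1, the repressors ZEB1, ZEB2, SNAI1, SNAI2 and TWIST1, and the epithelial splicing regulator ESRP1. They were found by their symbols among the gene names of the array, with every probe that was not a control spot, which gave 17 probes of 58201 and 10 genes of 43317.

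Expression was measured on 8 Agilent 60K arrays with both colours, each holding RNA of cells without transfection (mock) in Cy3 and RNA of the same cell line after transfection in Cy5, and the dyes were not swapped. PC3 prostate cancer cells were given an siRNA against PIR, which was si-PIR-2 on 1 array and si-PIR-3 on another. In SK-MES-1 lung squamous carcinoma cells 1 array held miR-144-5p and another miR-144-3p, and in PANC1 pancreatic cancer cells 1 array held miR-130-5p and another miR-130-3p. miR-204-5p was transfected into SW1990 pancreatic cancer cells and into MDA-MB-231 breast cancer cells, with 1 array for each line. All were established human cell lines, and RNAiMAX carried the RNA into the cells. No array held cells given a control RNA, so that the effect of transfection as such, the dye and the transfected RNA cannot be told apart in any ratio.

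Mature strands for the miRNAs named in the labels are shown with their seeds. By the seed, bases 2 to 8 of the mature strand, a miRNA pairs with its target messages. The seed is in capitals, and the sequences are those of RefSeq on GRCh38.p14. Of 7 mature strands looked for, 6 were found, and their 6 seeds all differed. The labels of the PANC1 arrays give miR-130 without saying a or b, so that the 5p strands of both genes are given. Of the 3p strands only that of miR-130b is given, since that of miR-130a was not found, and which gene was transfected is not known.
hsa-miR-144-5p: gGAUAUCAucauauacuguaag
hsa-miR-144-3p: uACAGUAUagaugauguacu
hsa-miR-204-5p: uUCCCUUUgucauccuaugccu
hsa-miR-130a-5p: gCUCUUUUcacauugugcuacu
hsa-miR-130b-5p: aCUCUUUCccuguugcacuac
hsa-miR-130b-3p: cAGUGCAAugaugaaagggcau
The MIR144 strands lie on the minus strand of chromosome 17 (chr17:28861583-28861604 for miR-144-5p and chr17:28861548-28861567 for miR-144-3p), and miR-204-5p lies on the minus strand at chr9:70810031-70810052. The MIR130A strand lies at chr11:57641212-57641233, and the MIR130B strands lie at chr22:21653316-21653336 and chr22:21653354-21653375, all on the plus strand.

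What each probe reads decides what its signal stands for. CDH1, VIM, FN1, SNAI1, SNAI2 and ESRP1 had 1 probe each, that of CDH1 (chr16:68869214-68869273 on hg19, NM_004360) in 10 spots per array. CDH2 and ZEB1 had 2 probes, ZEB2 had 3 and TWIST1 had 4. The 4 probes below read coding sequence, by the reading frame of the known proteins, and are shown because they carry results given further on. They are written 5′ to 3′ in lower case.
FN1 A_24_P334130: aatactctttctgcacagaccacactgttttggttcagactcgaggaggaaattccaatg
VIM A_23_P161190: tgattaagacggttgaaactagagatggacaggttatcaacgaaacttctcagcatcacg
TWIST1 A_33_P3414591: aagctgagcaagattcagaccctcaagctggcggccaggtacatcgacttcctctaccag
ZEB2 A_33_P3243832: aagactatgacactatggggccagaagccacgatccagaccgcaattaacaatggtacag
On hg19 the FN1 probe spans an exon junction (chr2:216288217-216288895, minus strand), as does the VIM probe (chr10:17278347-17279256, plus strand). The TWIST1 probe lies at chr7:19156462-19156521 and the ZEB2 probe at chr2:145182363-145182422, both on the minus strand. The TWIST1 probes A_21_P0005597 (chr7:19039592-19039651) and A_21_P0005474 (chr7:19039842-19039901), were designed to the transcript XR_428085 and lie apart from the TWIST1 message, and ZEB2 A_21_P0000590 was designed to NR_033258. For genes with several probes, the brightest is given in full.

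On the 8 arrays, the Cy3 signal was well above background by the scanner software for 41.4% to 46.4% of probes and the Cy5 signal for 49.8% to 54.6%, and no probe was saturated. PIR, the gene that the siRNAs target, had log2 ratios of -5.46 and -4.27 on the si-PIR arrays and between -1.59 and 0.05 on the other 6. Of the lineage markers, HOXB13 was at 7.58 in PC3 and at 1.58 or lower elsewhere, on the level scale explained in the next paragraph. The squamous keratins KRT5 and KRT6A were not well above background in SK-MES-1, and KRT14 was at -1.31 there, whereas in SW1990 KRT6A was at 4.36 and KRT14 at 3.16, so that these keratins were lower in the line labelled squamous. TP63 was above background in SK-MES-1 alone (-2.20), and SOX2 was at -1.16 in SK-MES-1 and at -3.23 in SW1990. CFTR and PDX1 of the pancreatic duct, KLK3 of the prostate and PGR of the breast were not well above background in the mock cells of any array.

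The first question was how the members stood in the cells before any transfection. The mock level is the log2 Cy3 signal minus the 75th percentile of its array. Lines with 2 arrays are given by both values, which may come from 1 RNA, so each line counted as 1 sample and no test was run between lines. Between the 2 mock channels of a line, the difference of a probe had an SD of 0.202 in PC3, 0.189 in SK-MES-1 and 0.183 in PANC1, and 95% of probes differed by at most 0.425. Neighbouring lines closer than this are treated below as not apart. A probe that was not well above background has only a bound there, and folds against it are written as at least N-fold, from the lowest signal well above background on that array (the floor, between -3.41 and -3.02). Levels are compared between lines within a gene and never between genes. In these bulk samples, fewer cells that express a gene and less RNA per cell cannot be told apart.

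CDH1 encodes E-cadherin, the adhesion molecule of epithelial junctions. Its mock level was 4.54 in SW1990, -0.07 and -0.05 in PC3 and -2.22 in MDA-MB-231, and it was not well above background on the 2 arrays of SK-MES-1 or the 2 arrays of PANC1. SW1990 stood 24.3-fold above PC3, the next line, and PC3 stood 4.46-fold above MDA-MB-231. Against SK-MES-1 the level in SW1990 was at least 233-fold higher. In raw brightness, the mean Cy3 intensity of CDH1 was 1016 in SW1990, 68.4 and 69.6 in PC3 and 30.9 in MDA-MB-231, beside a median local background of 19 to 22 over the arrays.

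ESRP1 encodes an RNA-binding protein that directs epithelial splice forms. Its level was 2.04 in SW1990, and it was not well above background in MDA-MB-231, SK-MES-1 or PANC1, so that SW1990 was at least 41.0-fold above SK-MES-1. The PC3 arrays disagreed, with -0.60 on the si-PIR-3 array and no signal well above background on the si-PIR-2 array (-3.45). On the si-PIR-3 array both channels of ESRP1 were brighter, with intensities of 55.7 in Cy3 and 73.9 in Cy5 against 24.8 and 28.8 on the si-PIR-2 array. ZEB2 A_33_P3243832 differed in the same way between these arrays, with 46.2 and 59.6 against 19.2 and 19.1. The cause was not tested, and the PC3 values of both probes are therefore uncertain.

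CDH2 encodes N-cadherin, which mesenchymal and neural cells carry in place of E-cadherin. Its level was 4.59 and 4.58 in SK-MES-1, 4.21 on both PC3 arrays, 1.77 in SW1990, -0.01 and 0.14 in PANC1 and -2.08 in MDA-MB-231. SK-MES-1 and PC3 were not apart, and SK-MES-1 was 101-fold above MDA-MB-231. The second probe, A_23_P38732, put PC3 and SK-MES-1 at the top and MDA-MB-231 at the bottom as well, and in MDA-MB-231 it was not well above background. The line with the lowest N-cadherin level therefore was not SW1990, which had the highest E-cadherin level. By the brightest probes, SW1990, PC3 and MDA-MB-231 had measurable levels of both cadherins, both low in MDA-MB-231 (CDH1 at -2.22).

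VIM encodes vimentin, the intermediate filament of mesenchymal cells. It was measured in every line, at 9.61 and 9.44 in PANC1, 9.52 in MDA-MB-231, 8.76 and 8.84 in PC3, 8.83 and 8.77 in SK-MES-1 and 8.46 in SW1990. The whole range was 2.10-fold. PANC1 and MDA-MB-231 were not apart, nor were PC3 and SK-MES-1, nor SK-MES-1 and SW1990.

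FN1 encodes fibronectin, a matrix protein that is secreted in the transition. It was at 1.02 and 1.15 in SK-MES-1, 0.45 and 0.44 in PC3, -0.64 in MDA-MB-231 and -2.34 in SW1990, and it was not well above background in PANC1. SK-MES-1 was at least 17.6-fold above PANC1. The PANC1 cells thus had vimentin at the upper end of the range and no fibronectin signal above background by the 1 FN1 probe of the array.

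Among the repressors, ZEB1 was measured in every line. Its level was 4.34 in MDA-MB-231, 3.61 and 3.55 in PANC1, 3.22 and 3.14 in PC3, 2.90 and 2.93 in SK-MES-1 and 2.80 in SW1990, a range of 2.91-fold. Only MDA-MB-231 and PANC1, of the neighbours in this order, were more than 0.425 apart, and the second probe gave a range of 2.38-fold with the same 3 lines on top. ZEB2, its paralogue, was near the floor, with -1.45 in MDA-MB-231 and -2.37 on 1 of the 2 SK-MES-1 arrays as the only arrays on which the brightest probe measured it in mock cells. ZEB2 A_33_P3243832 was at -1.84 in MDA-MB-231 and, as given above, at -0.85 on 1 of the 2 PC3 arrays.

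SNAI1 (Snail) was highest in PANC1, at 2.57 and 2.69, followed by SK-MES-1 at 0.34 and 0.11, MDA-MB-231 at -0.11, PC3 at -0.14 and -0.08, and SW1990 at -0.85. PANC1 was 5.29-fold above SK-MES-1 and 11.2-fold above SW1990, and SK-MES-1, MDA-MB-231 and PC3 were not apart from each other. SNAI2 (Slug) ran the other way between the pancreatic lines. It was at 1.13 in SW1990, 0.93 and 0.77 in SK-MES-1, 0.83 in MDA-MB-231 and 0.72 and 0.79 in PC3, which were not apart, and in PANC1 it was at -2.87 on 1 array and not well above background on the other. SW1990 was at least 16.6-fold above PANC1 for SNAI2.

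TWIST1, a helix-loop-helix repressor, was at 1.19 and 1.24 in PC3 and at -0.39 and -0.72 in SK-MES-1, and was not well above background in SW1990, MDA-MB-231 or PANC1. PC3 was 3.40-fold above SK-MES-1 and at least 22.4-fold above MDA-MB-231. The second probe of the TWIST1 message, A_23_P71073, measured it in PC3 alone of the 5 lines, at -2.49 and -2.50. ZEB1 and SNAI1 were above background in the mock cells of all 8 arrays. SW1990 and PANC1 lacked both ZEB2 and TWIST1 by every probe, MDA-MB-231 lacked TWIST1, and PC3 and SK-MES-1 each showed ZEB2 on 1 of their arrays only.

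**Figure D1:**
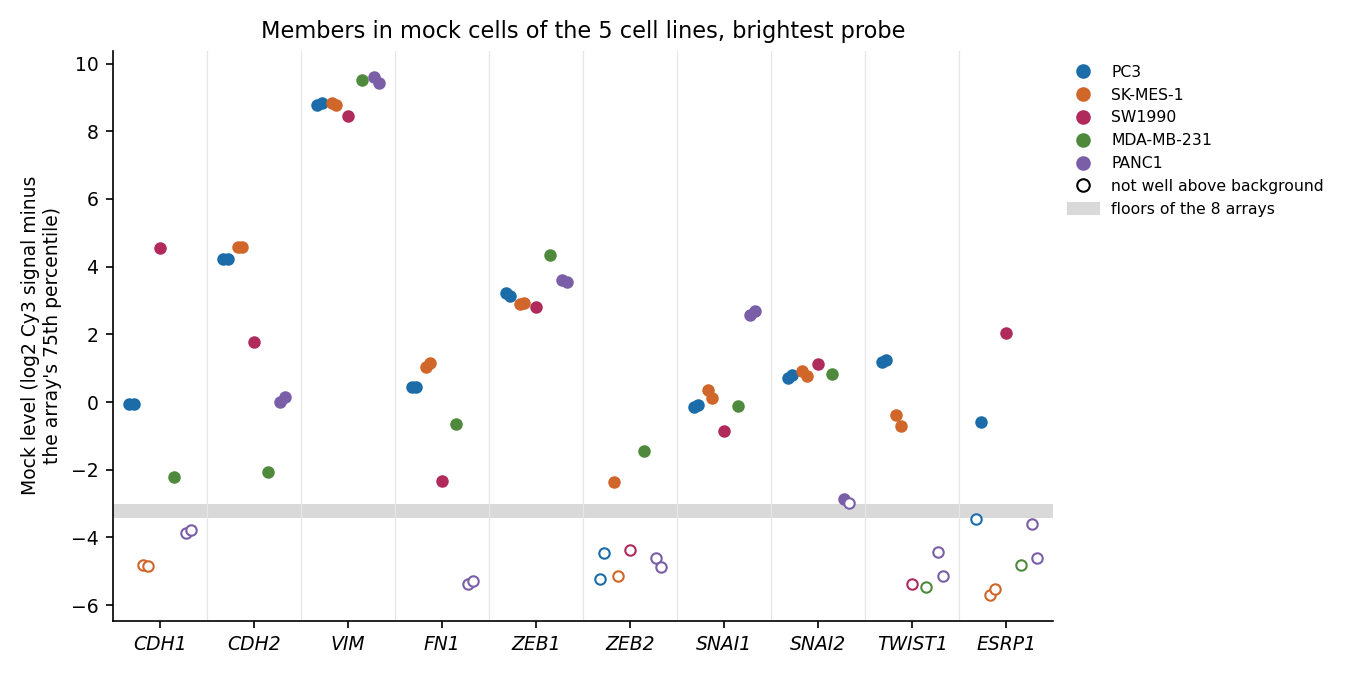
The vertical axis gives the mock level (log2 Cy3 signal minus the 75th percentile of the array) of the brightest probe of each member, with 1 point per array coloured by cell line, open where the signal was not well above background, and a grey band for the floors of the 8 arrays. SW1990 stands alone at the top for CDH1 (4.54) and ESRP1 (2.04), PANC1 for SNAI1 (2.57 and 2.69), and every VIM point lies between 8.46 and 9.61.

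In 7 of the 10 members, CDH1, CDH2, FN1, SNAI1, SNAI2, TWIST1 and ESRP1, the highest and the lowest line were at least 2 apart on the log2 scale (4-fold), against 29.6% of 23238 genes. After normexp background correction and quantile normalization, which draw low signals together, 3 members (CDH1, CDH2 and ESRP1) were 2 apart. The share of all genes on that scale is not given here. The 3 therefore cannot be set against the 29.6%, nor the fall from 7 to 3 read as a result about the members. SW1990 was highest by at least 1 for CDH1 and ESRP1, which 4.17% of all genes were, and lowest by at least 1 for none of the members, against 2.31% of all genes. This margin of SW1990 was chosen after the values had been seen.

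Among 21 further epithelial genes, 13 were highest in SW1990 by at least 1: EPCAM, ESRP2, GRHL2, OVOL1, OVOL2, RAB25, ST14, SPINT1, PRSS8, JUP, PKP3, CDH3 and MARVELD3. Of all genes, 4.17% were. GRHL2, RAB25 and MARVELD3 were well above background in SW1990 alone, so that they entered the count through the line in which they were high. For the list, the median difference of SW1990 from the mean of the other lines was 3.13 on the log2 scale, beside -0.04 over all genes. Undetected lines stand at the floor in these values. RAB25, a small GTPase of epithelial trafficking, was at 2.82 in SW1990 and above background in no other line. EPCAM, an epithelial adhesion molecule, was measured in all 5 lines, at 6.88 in SW1990 and between 1.66 and 3.76 elsewhere. OVOL1 and OVOL2, which repress mesenchymal genes in epithelia, were at 1.77 and 2.90 in SW1990 and at -2.32 and -0.82 in PC3, and were above background in none of the other 3 lines. The list was not uniform, for DSP (desmoplakin) was highest in MDA-MB-231 at 4.85 and CLDN4 (claudin 4) in PC3 at 8.03.

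Of 22 mesenchymal genes, 20 were well above background on all arrays of at least 1 line. S100A4 was highest in SW1990 by at least 1 (8.60, with 7.22 in MDA-MB-231), and TCF4 was lowest there, not well above background in SW1990 and at -0.57 to 2.94 in the other lines. The median difference of SW1990 from the mean of the others was -0.36. CDH11, a mesenchymal cadherin, was at 4.82 in SW1990, 4.39 in PC3, 3.97 in MDA-MB-231 and 0.13 in SK-MES-1, and not well above background in PANC1. TWIST2, the paralogue of TWIST1, was highest in SK-MES-1 at 3.28, and PRRX1, a homeobox regulator of mesenchyme, was measured at 3.13 in SK-MES-1 and -1.14 in MDA-MB-231 and in no other line.

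**Figure D2:**
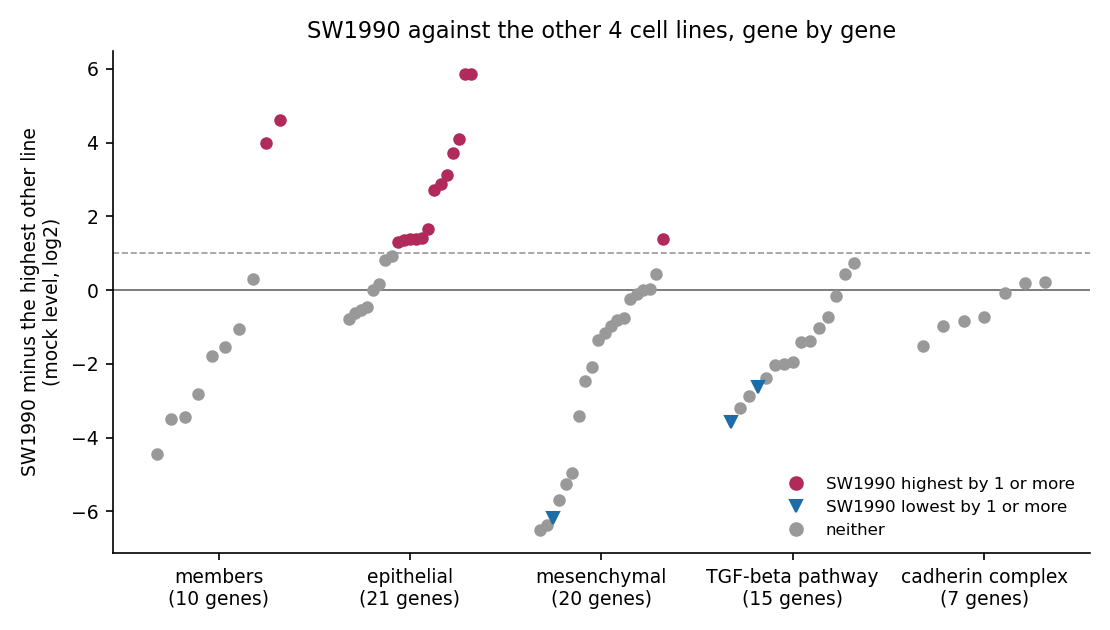
Each point is 1 gene, and the vertical axis is its mock level in SW1990 minus that of the highest other cell line (log2), with undetected lines at the floor. Of the epithelial genes 13 of 21 lie at 1 or above (dashed line), against 2 of the 10 members and 1 of 20 mesenchymal genes. Among the 13, GRHL2, RAB25 and MARVELD3 were measured in SW1990 alone.

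Of 15 genes of the TGF-beta pathway, which induces the transition in many epithelia, SW1990 was highest by at least 1 for none and lowest for TGFBR1 and SMAD2. TGFBR1, the type I receptor, was not well above background in SW1990 and lay between -1.96 and 0.33 in the others. The receptor TGFBR2 was measured in every line, between 3.23 in PANC1 and 5.26 in MDA-MB-231. Among 7 genes on the array for the partners of the cadherins, CTNNB1 (beta-catenin) lay between 4.19 and 5.05 and CTNND1 (p120-catenin) between 2.42 and 3.19. CTNNA1 (alpha-catenin), which ties the cadherin complex to actin, was at 4.69 to 5.67 in the other 4 lines and above background in PC3 in neither channel of either array. It was at least 261-fold lower in PC3 than in the lowest other line, and its second probe, A_33_P3403418, was absent from PC3 in the same way (at least 28.8-fold). PC3 thus had both cadherins and no alpha-catenin signal above background.

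For CDH1, ESRP1 and ZEB1, the genes with the most similar mock levels were sought by the root-mean-square difference of levels centred over the 5 lines, among 23237 genes. CDH1 was most like S100A14, PRSS8 and FXYD3 (0.410, 0.585 and 0.592). ESRP1 was most like OVOL1, CCDC64B and TNFRSF6B (0.163, 0.247 and 0.275). ZEB1, with its narrow range, was most like EXOC2, CCRN4L and KIF2C (0.0772, 0.0919 and 0.0953). Undetected lines stand at the floor in CDH1 and ESRP1 and in several of their neighbours, and for ZEB1 in CCRN4L, so that the floor sets part of these likenesses. With 5 lines these are descriptions only.

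The second question was whether the members changed with transfection. Ratios are the log2 of Cy5 over Cy3 as the scanner software gave them after background subtraction and dye normalization, and a ratio of 1 is a doubling. For si-PIR in PC3, the mean of the 2 arrays was tested against 0 with limma over 29370 probes, and 0% passed an adjusted p of 0.05, although at an unadjusted p under 0.05 there were 1219 lower and 1857 higher probes. PIR itself had a mean of -4.86 (SE 0.347) and an adjusted p of 0.384, so 2 arrays could not bring even the targeted gene past the threshold in this fit. Of the 15 member probes tested, covering all 10 genes, 0 passed the threshold, and at an unadjusted p under 0.05 none was lower and 3 were higher, 1 probe each of ZEB2, ZEB1 and CDH2.

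CDH1 had ratios of 0.23 and -0.10 on the si-PIR-2 and si-PIR-3 arrays, each over 10 spots whose ratios had an SD of 0.0892 and 0.124. The arrays thus gave opposite signs, and the mean was 0.07 (SE 0.197, adjusted p = 0.918 by limma). CDH2 had 1.0002 and 0.51 with the brighter probe and 0.64 and 0.22 with the other. These were positive on both arrays, with means of 0.75 (SE 0.218, adjusted p = 0.450) and 0.43 (SE 0.208, adjusted p = 0.537) by limma. VIM was slightly negative on both, at -0.14 and -0.36, with a mean of -0.25 (SE 0.188, adjusted p = 0.655 by limma). The sign of VIM depended on the scaling, for with median centring its ratio was positive on all 8 arrays (0.36 to 1.32). FN1 had -0.60 and 0.53, of opposite sign.

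ZEB1 had 0.21 and 0.40 with the brighter probe, and 0.79 and 0.84 with the probe A_33_P3640690. The latter mean was 0.81 (SE 0.180, adjusted p = 0.439 by limma). ZEB2 had the largest ratios of the members, 2.31 and 1.95, but its Cy3 signal was not well above background on either array, and only the Cy5 signal was. Measured against the floor the cells given si-PIR were at least 1.54-fold higher (limma mean 2.13, SE 0.201, adjusted p = 0.384), and with normexp and loess the mean fell to 0.13. In raw intensity the ZEB2 spot had 20.6 in Cy3 and 27.7 in Cy5 on the si-PIR-2 array and 22.2 and 29.3 on the si-PIR-3 array, close to the local background. ZEB2 was the only member past 1 on both arrays, a limit that 0.78% of probes passed upwards and 0.426% downwards.

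SNAI1 (-0.12 and 0.00), SNAI2 (0.54 and 0.13), TWIST1 (-0.14 and 0.20) and ESRP1 (0.41 and 0.03) had means between -0.06 and 0.33. Over the 10 members the median of the means was 0.14, beside 0.03 over all genes. Of the lists, 18 epithelial genes had a median of -0.22 and 16 mesenchymal genes one of 0.25, and none of them passed the threshold. At an unadjusted p under 0.05, where 918 of all 22453 genes were lower and 1350 higher, ELF3 and PKP3 were lower among the epithelial genes, and LOX, TGFBI and QKI were higher among the mesenchymal ones. Of the 15 genes of the TGF-beta pathway, ID1 and TGFB3 were lower and SMAD7 and TGFB2 were higher at this limit. CTNND1, the p120-catenin that holds cadherins at the membrane, had -0.97 and -1.19, with a mean of -1.08 (SE 0.188, adjusted p = 0.415 by limma). With normexp and median centring, which took the median of all tested probes from 0.03 to 0.30, 6064 probes were called higher, with both ZEB1 probes and the brighter probes of CDH2 and TWIST1 among them. That median of 0.30 is to be set against their means there, which were 1.03 and 1.19 for ZEB1, 1.53 for CDH2 and 0.54 for TWIST1. PIR was called lower under this setting, with a mean of -3.52.

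For miR-204-5p, the 2 arrays are of different lines, so that their mean asks for a change shared by SW1990 and MDA-MB-231. Limma called 0% of 26650 probes, with 2127 lower and 2817 higher at an unadjusted p under 0.05. Past 1 on both arrays were 0.582% of probes upwards and 0.567% downwards, with none of the members in either direction. Of the 9 member probes tested, over 7 genes, 0 passed the adjusted threshold and 0 had an unadjusted p under 0.05. With normexp and loess limma called 733 probes lower and 860 higher in this comparison, and no member was among them.

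CDH1 was at -0.73 in SW1990, where it was bright (spot SD 0.0450), and at -0.12 in MDA-MB-231, where it was dim (spot SD 0.244). The mean was -0.42 (SE 0.202, adjusted p = 0.359 by limma). With median centring, the CDH1 ratio in SW1990 was 0.03, against -0.69 with loess. SNAI2 was lower in both lines, at -0.31 and -0.24, with a mean of -0.27 (SE 0.105, adjusted p = 0.301 by limma), and with median centring its mean was 0.24, called higher. SNAI1 was at -0.09 in SW1990 and -1.31 in MDA-MB-231, and the mean of -0.70 had an SE of 0.361 (adjusted p = 0.384 by limma).

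FN1 was at -1.02 in SW1990, where it was dim, and at -0.16 in MDA-MB-231. With loess after normexp these ratios were -0.09 and -0.05. VIM was at 0.28 and -0.38 and the brighter ZEB1 probe at 0.14 and -0.71, so that both were positive in SW1990 and negative in MDA-MB-231, although with median centring VIM was positive in both lines. For CDH2 in MDA-MB-231 the probes disagreed, with 0.25 for the brighter and 1.71 for A_23_P38732, of which the mock channel was not well above background (at least 1.95-fold higher). ESRP1 was at -0.42 in SW1990 and was not measured in MDA-MB-231.

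Over the 7 members tested the median of the means was -0.28, beside 0.05 over all genes. In the TGF-beta list, ID1, a target of BMP signalling that inhibits helix-loop-helix factors, had -1.38 in SW1990 and -1.37 in MDA-MB-231 and was the only gene of the lists past 1 on both arrays. Its mean was -1.38 (SE 0.103, adjusted p = 0.220 by limma). The related ID3 had -0.86 and -0.85, and ID2 had -0.42 and -0.57, neither past the threshold. On the si-PIR arrays ID1 had -0.37 and -1.43. At an unadjusted p under 0.05, where 1629 of all 20478 genes were lower and 2180 higher, the epithelial genes CLDN7, AP1M2 and EPCAM were lower (means -0.39, -0.48 and -0.49), and ESRP2, the paralogue of ESRP1, was higher (0.55). Of 12 mesenchymal genes, CDH11, S100A4 and MMP14 were lower and TGFBI and NT5E higher at this limit. None passed the adjusted threshold in any of the lists.

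**Figure D3:**
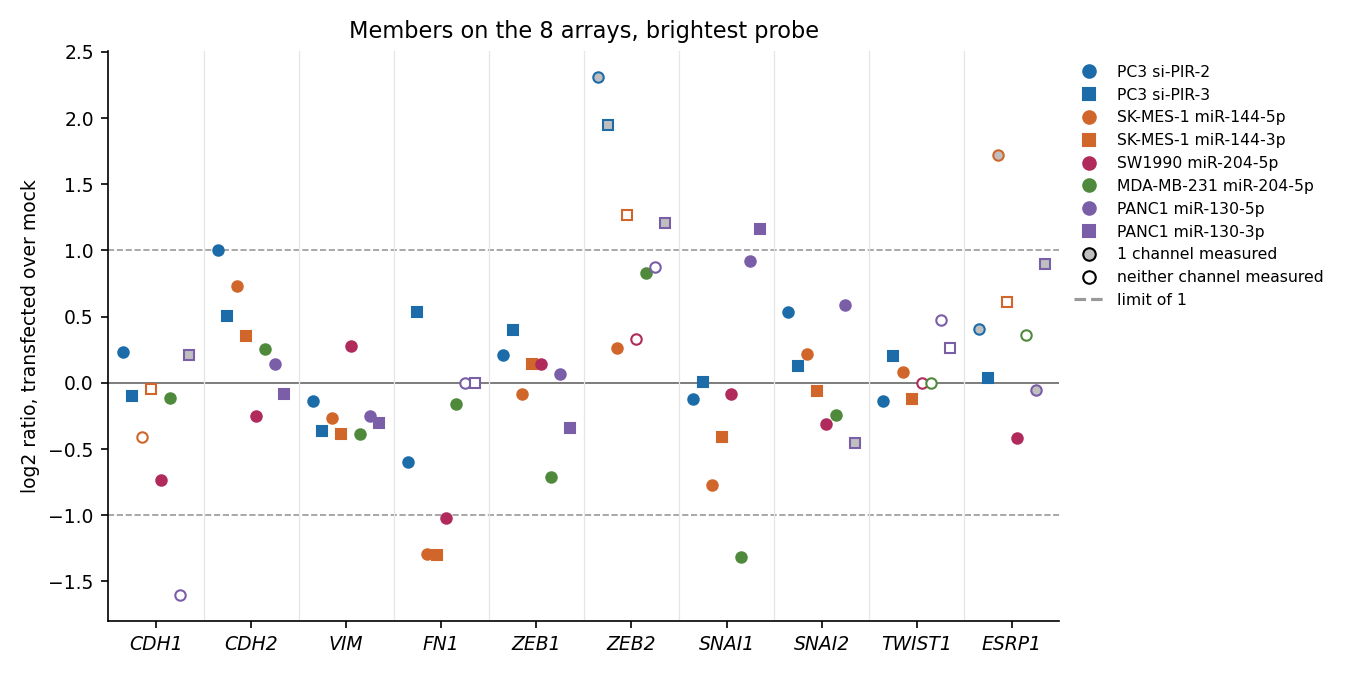
The vertical axis is the log2 ratio of transfected over mock cells for the brightest probe of each member, with 1 symbol per array coloured by cell line, filled in colour where both channels were well above background, in grey where 1 was, and open where neither was. Dashed lines mark a ratio of 1 in either direction. With both channels measured, FN1 passed it downwards on the miR-144-5p (-1.29), miR-144-3p (-1.30) and SW1990 miR-204-5p (-1.02) arrays. SNAI1 did so on the MDA-MB-231 miR-204-5p array (-1.31). With loess after normexp none of these lay below -1. Upwards with both channels measured were SNAI1 with miR-130-3p (1.16) and CDH2 with si-PIR-2 (1.0002). The ratios of ZEB2 above 1 rest on 1 measured channel or none.

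The strands of miR-144 in SK-MES-1 and of miR-130 in PANC1 were on 1 array each, with no replicate check and no test. A ratio past 1 in either direction was found for 6.07% of the probes measured on the miR-144-5p array, 5.61% on the miR-144-3p array, 14.4% on the miR-130-5p array and 8.19% on the miR-130-3p array. Over these 4 arrays, among member probes well above background in at least 1 channel, 2 ratios lay below -1 and 4 lay above 1. The 2 below -1 were those of FN1. The 4 above 1 were those of ESRP1 and TWIST1 A_21_P0005597 (1.05) with miR-144-5p and of ZEB2 and SNAI1 with miR-130-3p, and SNAI1 was the only one of them with both channels measured.

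FN1 was at -1.29 with miR-144-5p and at -1.30 with miR-144-3p, with both channels well above background. These arrays share their cell line, and the mock RNA may be the same, so they are not independent. With normexp and loess both ratios were -0.77, and with median centring they were -0.43 and -0.45, so that FN1 did not lie below -1 in either setting. After subtracting the average of the 7 remaining arrays they were -0.93 and -0.94. Those 7 include the other miR-144 array, with nearly the same FN1 ratio, and the 2 PANC1 arrays, where neither channel measured FN1. The subtraction therefore cannot decide whether FN1 lay below -1. SNAI1 was at -0.77 and -0.41 on the miR-144-5p and miR-144-3p arrays, and VIM at -0.26 and -0.39. CDH2 was at 0.73 and 0.35, SNAI2 at 0.22 and -0.06, ZEB1 at -0.09 and 0.14 and TWIST1 at 0.09 and -0.12. ESRP1 had 1.72 with miR-144-5p, from a mock channel below background and a Cy5 intensity of 22.0, and no fold above the floor could be given. CDH1 was not measured in either channel on either array.

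In PANC1, SNAI1 was at 0.92 with miR-130-5p and at 1.16 with miR-130-3p, with both channels measured. Its average intensity was 267 in Cy3 and 596 in Cy5 on the first array and 283 and 1064 on the second. With loess after normexp the ratios were 0.76 and 1.08, and with the other 7 arrays subtracted they were 1.14 and 1.41, so that SNAI1 was positive with both strands in each setting. The PANC1 arrays share their cell line, and the mock RNA may be the same, so they are not independent. Their SNAI1 ratios were the highest of the 8 arrays, and PANC1 was also the line with the highest SNAI1 level before transfection. VIM was at -0.25 and -0.30 and ZEB1 at 0.07 and -0.34. SNAI2, near its floor, was at 0.59 with miR-130-5p and at -0.45 with miR-130-3p. ZEB2 had 1.21 with miR-130-3p from a mock channel below background, and no fold above the floor could be given. The CDH1 ratio of -1.60 with miR-130-5p had neither channel well above background and a spot SD of 0.868, and no change is read from it. FN1 was not measured in PANC1 in either channel.

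The lists on these arrays are given by their counts. With miR-130-3p, 4 of 15 epithelial genes measured were past 1 upwards and none downwards, namely PRSS8 (2.35), CDH3 (2.17), ELF3 (1.97) and GRHL2 (1.35), each from a mock channel that was not well above background, so that they entered the count through the channel in which they were high. Of all 23113 genes measured on this array, 1467 were past 1 upwards and 448 downwards. With miR-130-5p, the median of 11 epithelial genes was -0.54, beside 0.09 over all genes, and ESRP2 (-1.55) and AP1M2 (-1.20) were lower with both channels measured, while PRSS8 (1.66) was higher from a mock channel below background. Of all 22380 genes measured there, 1395 were past 1 downwards and 1677 upwards. Of the mesenchymal genes, MMP2 was at 1.43 with miR-130-5p. TGFBR1 was at -1.76 with miR-130-5p, and ID2 (1.29) and SMURF2 (1.26) were higher. With miR-144-5p, ELF3 (-1.43) and NT5E (-1.44) were lower and AP1M2 (1.35) and THY1 (1.15) were higher, with both channels measured. With miR-144-3p, EHF (1.43), an epithelial transcription factor, was higher with both channels measured, and KRT14 (-1.20) was lower. CDH3, which encodes P-cadherin, was above background in SK-MES-1 after transfection only, at least 1.33-fold higher with miR-144-5p and at least 1.29-fold higher with miR-144-3p.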

How the data were processed

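The authors deposited the scanner output of 8 Agilent arrays (Feature Extraction 11.5.1.1), all on 1 slide and from 1 scan. In the deposited files each spot has a linear intensity per dye with a local background, and a log10 ratio (Cy5 over Cy3) that the software took after background subtraction and dye normalization. The log10 ratios of the deposited value table were identical to these (largest difference 0). Groups came from the labels of cell line and transfected RNA. Labels and methods number the siRNAs differently, and the labels were followed. Nothing says that the 2 siRNA arrays came from separate cultures, so that p-values measure only the spread between these arrays, which may be technical.

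Of 62976 spots per array 60901 were not controls. Spots flagged as non-uniform or as population outliers (126 to 173 per array) were left out, spots of a probe were averaged, and a probe was taken as well above background where at least 0.5 of its spots were. Ratios were turned to log2, and limma 3.58.1 (lmFit and eBayes, R 4.3.3) tested whether the mean of 2 arrays differed from 0, over every probe that exceeded background in 1 channel or both on each of the 2 arrays, with Benjamini-Hochberg adjustment at 0.05. Folds against a dim channel used processed signals after Aquantile on the mean log2 signal and are open to dye bias, since no dyes were swapped. Because each transfected RNA lies in Cy5, dye and transfection cannot be told apart. The number of arrays limits the precision.

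The members and gene lists were chosen with earlier results of these data known. All 10 members were named, with any list gene past the threshold, the 2 largest rises and 2 largest falls past 1 of each list on each array or pair, PIR, and the 3 most similar genes for CDH1, ESRP1 and ZEB1. Others were named after their values were seen. The result of 1 list gene is not reported here. Gene names and hg19 coordinates are those of the array design, and no further exon annotation was made. Alternatives were normexp (offset 50) with loess or median centring, the value table, all probes unfiltered, probes measured in both channels, the brightest probe, a pooled fit of 8 arrays, subtraction of the other arrays, limits of 0.58 and 2, other scalings of Cy3, and leaving out each array. The steps were tested on simulated data. Figures were drawn with matplotlib 3.10.9.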

Additional observations from a re-analysis of the deposited data

Results flagged for a closer look

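With miR-204-5p, 4 member probes had opposite signs in the 2 lines, with both channels well above background in each, and the differences were not tested, since each line had 1 array. The log2 ratio in SW1990 minus that in MDA-MB-231 was 0.86 for ZEB1 A_33_P3374723 (0.14 and -0.71) and 0.78 for ZEB1 A_33_P3640690 (0.37 and -0.41). It was 0.66 for VIM (0.28 and -0.38). For CDH2 A_33_P3214159 it was -0.51 (-0.25 and 0.25). With loess after normexp, the signs of all 4 probes were the same as with the scanner ratios. With median centring, 3 of the 4 were positive in both lines, VIM at 1.32 and 0.59, CDH2 A_33_P3214159 at 0.40 and 0.18 and ZEB1 A_33_P3640690 at 0.76 and 0.13, and ZEB1 A_33_P3374723 was at 0.84 and -0.11.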

How the results depend on the processing

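For si-PIR, calls by limma were 0 in both directions under each alternative except median centring, which called 11 probes lower and 6064 higher, and leaving out either array with the spread of the 8 arrays pooled gave 0 to 0 calls (the lone array is then assumed to vary like the other groups). For miR-204-5p, median centring called 117 lower and 13326 higher, loess 733 and 860, and the filter on both channels 6 lower, while leaving out either array gave 0 to 0 calls. The 125 probes lower than -1 on both si-PIR arrays became 22 with loess, 1 with median centring, 404 without the filter, 594 at a limit of 0.58 and 10 at 2. The 229 higher probes became 7 with loess, 662 with median centring, 452 without the filter, 31 with the filter on both channels, 944 at 0.58 and 3 at 2. For miR-204-5p, the 151 lower probes became 49 with loess, 7 with median centring, 412 without the filter, 614 at 0.58 and 13 at 2. Its 155 higher probes became 10 with loess, 444 with median centring, 360 without the filter, 34 with the filter on both channels, 753 at 0.58 and 3 at 2. Median centring moved the median of all tested probes to 0.30 in both comparisons.

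Of 229 alternative values of the members' mean ratios, 223 stayed on the same side of the threshold, 4 passed it and 2 reversed. All 6 came from median centring: for miR-204-5p, VIM turned from -0.05 to 0.95 (adjusted p = 0.0204 by limma) and SNAI2 from -0.27 to 0.24 (adjusted p = 0.0489 by limma), as did PIR from -0.19 to 0.41. On single arrays, the member ratios below -1 numbered 2, and 0 with loess, with the other 7 arrays subtracted and at a limit of 2. Both were of FN1 with miR-144, and the 7 arrays subtracted held the other miR-144 array, so that the 0 of that setting decides nothing. Member ratios above 1 numbered 4, and 1 with loess, 1 with both channels required, 9 at a limit of 0.58 and 0 at 2. The count of members with lines at least 2 apart was 7 with the array median, 3 after quantile normalization, and 7 to 7 when an array of a line with 2 was left out. The share of all genes after quantile normalization is not given here, so that the 3 has no share beside it. Apart from the effect of each limit on its own count, the cause of these differences was not tested. Low signal limits several members: ZEB2, ESRP1, TWIST1, CDH1 and FN1 were below background in both channels of some arrays, and ratios of dim spots were smaller with normexp and loess (SNAI1 in MDA-MB-231 -0.44 in place of -1.31). No paired analysis was possible because the groups share fewer than 2 replicate numbers, and each ratio already compares the channels of 1 array.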

Other observations

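Markers of other lineages also differed by line. KRT6A, a squamous keratin, was at 4.36 in SW1990 and above background in no other line, and MUC1, a mucin of ductal epithelium, was at 5.67 in SW1990 and at 1.84 or lower elsewhere. GATA3 and KRT8 of the breast list were also highest in SW1990, at 1.70 and 6.94. Of genes at the floor in mock PANC1 cells, SOX2 was at least 1.84-fold higher with miR-130-5p and at least 3.05-fold higher with miR-130-3p, and LOX, which cross-links collagen, at least 2.96-fold higher with miR-130-3p. LOX was also at least 2.17-fold higher over the 2 si-PIR arrays in PC3. TGFBR3 was at least 2.23-fold higher with miR-144-5p in SK-MES-1 and at least 2.22-fold higher with miR-130-3p in PANC1. Dye and transfection cannot be told apart in these values.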
